A study of Mus musculus with 8 samples.

Results

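Receptors for metabolic hormones were examined in cells sorted as pituitary gonadotropes, the cells that secrete LH and FSH. The samples also held abundant hormone RNA of other pituitary cell types, as given below. The set holds 10 of the 55523 entries of the count table. They are Lepr, Insr, Igf1r, Ghr, Prlr, Adipor1, Adipor2, Glp1r and Gipr, which encode the receptors for leptin, insulin, IGF-1, growth hormone, prolactin, adiponectin, GLP-1 and GIP, and Gpr119, which encodes a G protein-coupled receptor for lipid amides. The members were chosen by symbol, with earlier results of these data known. Gpr119 was also selected on its level, because it is on the study's list of genes higher in female gonadotropes than in the whole pituitary, a list made with these female samples. Its levels are therefore given here as a description and no test of it is reported.

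The cells came from Ad4BP-BAC-EGFP mice, in which a bacterial artificial chromosome carrying the Nr5a1 (Ad4BP) regulatory region drives EGFP, and EGFP-expressing cells were sorted from the pituitary. All 8 samples carry this transgene, 4 from males and 4 from females, and the labels give neither an age nor a treatment. Male replicate 1 is shown apart because the study excluded it for its expression pattern, so the sexes were compared over male replicates 2 to 4, called the compared males here, and female replicates 1 to 4. The labels do not say whether the samples of a sex came from separate animals, so p-values measure only the spread between these samples. The library totals ranged from 18774578 to 31302588 counts. A floor of 3 counts corresponded to between 0.0918 and 0.147 CPM, the count scaled to a common library size with the trimmed mean of M values (TMM), a limit that covers counting error only.

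Reproduction depends on energy stores, and the pituitary is among the places where metabolic hormones can act on the reproductive axis. LEPR, GHR and PRLR are cytokine receptors without a kinase of their own that signal through JAK2 and STAT proteins. INSR and IGF1R are closely related receptor tyrosine kinases that act through IRS proteins, PI3 kinase and AKT. ADIPOR1 and ADIPOR2 belong to the PAQR family and are linked to AMP-activated kinase, whereas GLP1R, GIPR and GPR119 couple to Gs and raise cyclic AMP. GPR119 is best known from pancreatic beta cells and intestinal endocrine cells.

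Gpr119 was listed at 0 in all males, and Igf1r was the highest member per length in the mean over the females and the compared males together. Promoters are shown for these members, which had the most contrasting patterns. Each is the stretch of 250 bases before a RefSeq start site in GRCm38.p6, written 5′ to 3′ on the gene's strand, and capitals mark matches to AAGGTCA or its reverse complement TGACCTT, the core of the element that NR5A1 binds and one that elements of other nuclear receptors also hold. RefSeq promoters matched 8 of the 10 members, 13 windows in all, and Insr and Gipr were not in the table. The motif was found in 1 window, that of Igf1r, 86 bases before the RefSeq start. Of 32851 mouse promoters of this length, 4.08% hold it on either strand. A match is a description of letters and does not show binding.
Gpr119 (chrX:48674479-48674728, minus strand): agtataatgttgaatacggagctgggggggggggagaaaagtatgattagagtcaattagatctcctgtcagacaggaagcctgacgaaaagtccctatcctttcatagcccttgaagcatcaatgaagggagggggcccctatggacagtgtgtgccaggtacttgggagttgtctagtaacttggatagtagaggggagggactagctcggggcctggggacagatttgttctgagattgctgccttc
Igf1r (chr7:67952007-67952256, plus strand): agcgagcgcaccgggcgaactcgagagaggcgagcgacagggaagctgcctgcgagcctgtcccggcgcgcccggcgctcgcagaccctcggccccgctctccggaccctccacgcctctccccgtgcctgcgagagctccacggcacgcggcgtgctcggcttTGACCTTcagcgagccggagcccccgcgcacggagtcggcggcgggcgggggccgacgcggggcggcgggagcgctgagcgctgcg

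The receptors spanned a wide range of levels. Dividing CPM by the summed exon length of each gene (GENCODE M21, GRCm38) allows an approximate comparison of levels between genes. The length covers the exons of all annotated transcripts, 12 for Prlr and 10 for Ghr, and not those of the transcript expressed. On this scale, the mean over the 7 samples was 14.6 ± 6.32 CPM per kb for Igf1r (SD, n = 7), 13.1 ± 2.09 for Adipor2, 9.41 ± 1.28 for Adipor1 and 4.97 ± 1.58 for Insr. Prlr followed at 2.05 ± 1.40 CPM per kb, Ghr at 1.91 ± 0.717, Gpr119 at 0.942 ± 1.03, Glp1r at 0.543 ± 0.308, Lepr at 0.217 ± 0.166 and Gipr at 0.0205 ± 0.0383. Adipor2 was above Adipor1, Adipor1 above Insr and Insr above Prlr in 7 of 7 samples, and Igf1r was above Adipor2 in 6 of 7, the exception being male replicate 3. In the mean of the compared males, Igf1r (9.65 CPM per kb) lay below Adipor2 (12.3) and Adipor1 (10.5). Prlr was above Ghr in only 4 of 7 samples, Ghr above Gpr119 in 5 and Gpr119 above Glp1r in 3, so these neighbours did not keep 1 order over the 7 samples. The tally for Gpr119 mixes the sexes. In the 3 compared males, at 0, it lay below Ghr and not above Glp1r, whereas in the females it lay above Glp1r in 3 of 4 samples and below Ghr in 2 of 4. Glp1r was above Lepr and Lepr above Gipr in 6 of 7 samples. In bulk samples, fewer cells of a type and less RNA per cell cannot be told apart.

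**Figure D1:**
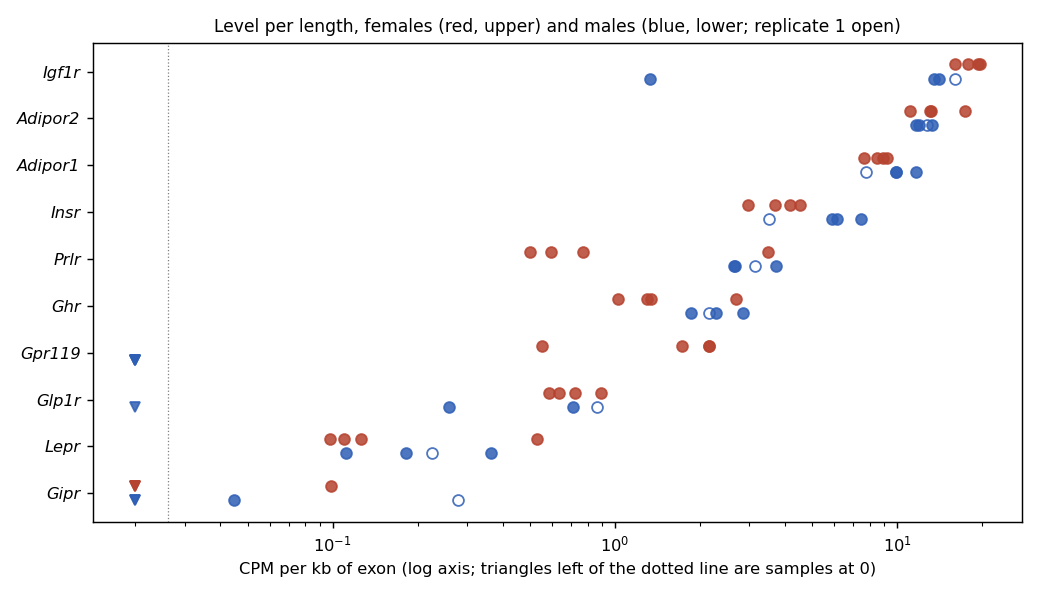
Level of each receptor in CPM per kb of exon on a log axis, 1 point per sample, with females in red, males in blue and male replicate 1 open; triangles left of the dotted line are samples at 0. Igf1r and the adiponectin receptors lie at the top and Gipr at the bottom, and male replicate 3 lies apart from the other samples for Igf1r.

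Between the sexes, none of the 8 members open to a test passed an adjusted p of 0.05 in edgeR's quasi-likelihood test, which fitted 20152 genes. Gipr did not pass the filter on low counts. Over all genes tested, 471 or 2.34% passed, 198 higher in males and 273 higher in females. At an unadjusted p under 0.05 there was 1 member of 8, Insr, against 19.9% of all genes tested. DESeq2 called 1 member, Insr, of the 7 to which it gave an adjusted p, against 9.71% of all such genes, and gave none to Prlr. Both member counts are close to or below these shares. The samples of the sexes did not overlap for 3 of the 8 members, Insr, Adipor1 and Igf1r, against 22.5% of all genes tested. Of the log2 fold changes, taken as male over female throughout, 5 were positive and 3 negative, with a median of 0.14 against -0.03 over all genes tested. For Lepr the sign was not stable, since it turned negative with library size alone as the scaling and with single samples left out.

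**Figure D2:**
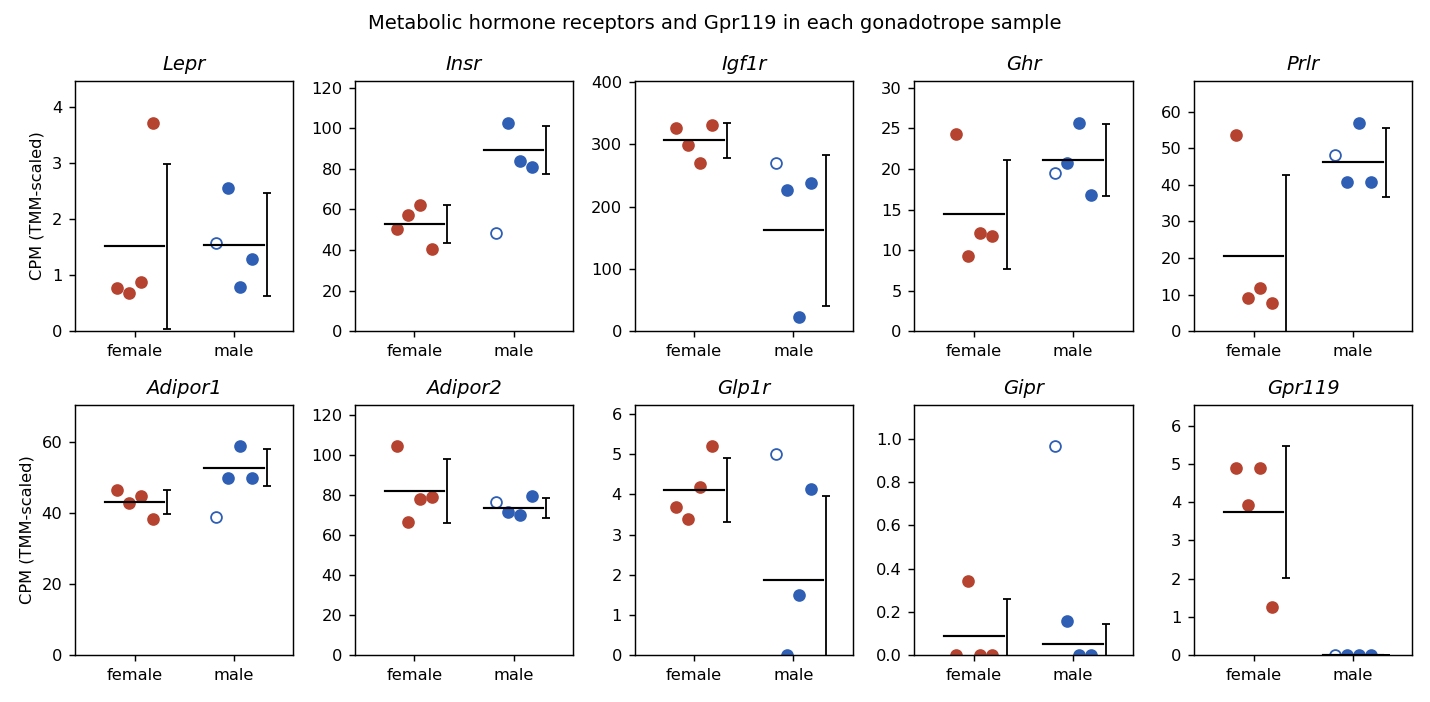
CPM of the 10 receptors in each sample on linear axes that start at 0, with replicates 1 to 4 from left to right; lines are means and bars SDs of the 4 females and of male replicates 2 to 4 (bars stop at 0), and the open circle is male replicate 1, outside the mean. Insr lies higher in the filled male points, Gpr119 is at 0 in every male, and Prlr has a single high female, replicate 1.

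Gene positions below are from GENCODE M21 (GRCm38). Among the cytokine receptors, Lepr (chr4:101717404-101815352, plus strand) was low. It had 0.771, 0.687, 0.888 and 3.72 CPM in female replicates 1 to 4, 2.57, 0.787 and 1.28 CPM in the compared males, and 1.58 CPM in male replicate 1. These values rest on 14 to 86 counts per sample. Female replicate 4 was above all the others and the sexes overlapped. The mean was 1.55 ± 0.918 CPM in males (SD, n = 3) and 1.52 ± 1.47 CPM in females (SD, n = 4), and the log2 fold change of 0.00 had a 95% interval from -1.78 to 1.78. It was -0.58 without male replicate 2 and 0.97 without female replicate 4, where the female mean fell to 0.782 CPM. Leprot, which lies beside Lepr and encodes a small membrane protein that limits receptor delivery to the surface, was far more abundant, at 129 ± 25.9 CPM in males and 98.9 ± 11.4 CPM in females, with no call between them (edgeR adjusted p = 0.319).

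Prlr (chr15:10177238-10349180, plus strand) had the widest relative spread among the females of the members above 1 CPM in all samples, with a ratio of highest to lowest value of 6.98. In CPM, the female SD of Igf1r was larger (28.1 against 22.1). Female replicate 1 had 53.5 CPM, whereas female replicates 2, 3 and 4 had 9.08, 11.8 and 7.66 CPM. Male replicates 2 to 4 had 40.7, 57.0 and 40.8 CPM, and male replicate 1 had 48.1 CPM. Female replicate 1 thus lay within the male range and the other females below it. With all 7 samples the log2 fold change was 1.15 ± 0.70 (SE), with a 95% interval from -0.49 to 2.79 and an edgeR adjusted p of 0.427. Without female replicate 1 it was 2.27, with an adjusted p of 0.0295. Female replicate 1 also stood apart in its marker genes. Among females it had the lowest sums of gonadotrope markers (21516 CPM against 27703 to 34770), somatotrope markers (12413 against 46766 to 58215) and the lactotrope marker Prl (4677 against 6791 to 18234), and the highest sums of stem cell markers (383 against 246 to 303.6) and stromal markers (170 against 120 to 126). The part of these in the Prlr difference was not tested. Prlr shares 203 exon bases with Gm21973 on the same strand, so reads in that stretch are uncertain.

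Ghr (chr15:3317760-3583492, minus strand) was also highest among females in replicate 1. It had 24.4 CPM in female replicate 1 and 9.32, 12.2 and 11.7 CPM in female replicates 2 to 4, against 20.7, 25.7 and 16.8 CPM in the compared males and 19.4 CPM in male replicate 1. The sexes overlapped only through female replicate 1. The log2 fold change was 0.53 ± 0.35 (SE), with a 95% interval from -0.29 to 1.35 and an edgeR adjusted p of 0.471. Without female replicate 1 it was 0.92, still short of the threshold at an adjusted p of 0.108. The ratio of Prlr to Ghr per kb was 0.575, 0.575 and 0.385 in female replicates 2, 3 and 4, but 1.297 in female replicate 1, between 1.16 and 1.43 in the compared males and 1.46 in male replicate 1. The ligands of these receptors were themselves abundant in the sorted cells. Gh ranged from 12410 to 58207 CPM in females and from 64444 to 143693 CPM in male replicates 2 to 4, and the sexes did not overlap (edgeR adjusted p = 0.289). Prl ranged from 4677 to 18234 CPM in females and from 6179 to 15841 CPM in the compared males, and was 1630 CPM in male replicate 1. Both are products of other pituitary cell types, and the summed level of the somatotrope markers Gh and Ghrhr and of the PIT1 lineage marker Pou1f1 (16.4 to 35.5 CPM in females, 62.2 to 143 CPM in male replicates 2 to 4) was higher in the compared males than in the females. Pomc, a marker of corticotropes and melanotropes, ranged from 12385 to 22159 CPM in females and from 10061 to 28871 CPM in the compared males. Whether other cells contributed receptor counts was not tested.

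Of the receptor tyrosine kinases, Insr (chr8:3122061-3279617, minus strand) had higher values in the compared males, short of the adjusted threshold. The females had 50.6, 57.3, 62.1 and 40.7 CPM, male replicates 2 to 4 had 103, 83.9 and 81.0 CPM, and male replicate 1 had 48.3 CPM. Each of the 3 males lay above each of the 4 females, and male replicate 1 lay among the females. The means were 89.2 ± 11.8 CPM in males (SD, n = 3) and 52.7 ± 9.27 CPM in females (SD, n = 4), a fitted ratio of 1.67. The log2 fold change was 0.74 ± 0.18 (SE), with a 95% interval from 0.30 to 1.17. Its edgeR adjusted p was 0.0852, and DESeq2 gave an adjusted p of 0.0126. An exact two-sided permutation test gave p = 0.0286, the smallest that its 35 arrangements of 3 males and 4 females allow.

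Igf1r (chr7:67952827-68233668, plus strand), with the promoter shown above, had the highest mean of the members. The promoter window ends at 67952256, at a RefSeq start upstream of this GENCODE start, so its motif lies farther from the latter. The females had 326, 299.9, 269.95 and 331 CPM. Male replicates 2 and 4 had 226.5 and 237 CPM, male replicate 1 had 269.6 CPM, and male replicate 3 had 22.4 CPM, from 599 counts. All 3 males in the comparison lay below all 4 females, and male replicate 3 lay far below the rest. The log2 fold change was -0.94 ± 0.68 (SE), with a 95% interval from -2.54 to 0.66 and an edgeR adjusted p of 0.513, while the exact permutation test, which uses log2(CPM + 1), gave p = 0.0286, the value that any gene without overlap reaches. Without male replicate 3 it was -0.42 ± 0.16, with an adjusted p of 0.288. Drops confined to a single library occurred elsewhere in the table. Of 13563 genes with at least 50 counts in the other 6 samples, 631 or 4.65% had 1 sample below 0.2 of the lowest of those 6, and Igf1r was the only such gene among the 6 members that met the count minimum. Male replicate 3 was the low sample for 90 of these genes, and 7 of the 90 were at 0. The 3 genes with the pattern nearest to Igf1r over the 8 samples, Lmbrd1, Uri1 and Ccdc107, had their lowest male value at 3.97, 6.11 and 0.637 CPM, while their female values were at least 47.5, 109.9 and 22.1 CPM. Why counts dropped in single libraries was not tested.

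The ratio of Igf1r to Insr per kb differed between samples accordingly. It was between 3.56 and 6.65 in females, 1.80 and 2.40 in male replicates 2 and 4, 0.219 in male replicate 3 and 4.57 in male replicate 1. Igf1r was therefore the higher of the pair in all samples except male replicate 3.

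Over the 8 samples, the adiponectin receptors were the most even members, with SDs of log2(CPM + 1) of 0.199 for Adipor1 and 0.194 for Adipor2. Within the females, the SD of Adipor2 was 19.5% of its mean. This was more than for Igf1r (9.17%), Insr (17.6%) and Glp1r (19.3%), whereas Adipor1 had 7.97%. Adipor1 (chr1:134415378-134433351, plus strand) had 46.4, 42.8, 44.7 and 38.4 CPM in females, 49.7, 58.8 and 49.9 CPM in the compared males and 38.9 CPM in male replicate 1. The sexes did not overlap, but the difference was small, with a log2 fold change of 0.27 ± 0.14 (SE), a 95% interval from -0.06 to 0.60 and an edgeR adjusted p of 0.349 (exact permutation p = 0.0286, again that of any gene without overlap). Adipor2 (chr6:119353150-119417704, minus strand) had 104, 66.5, 78.0 and 78.9 CPM in females, 71.4, 70.1 and 79.3 CPM in the compared males and 76.6 CPM in male replicate 1. Its sexes overlapped, and the log2 fold change was -0.18 ± 0.18 (SE), with a 95% interval from -0.59 to 0.24. Adipor2 was above Adipor1 per kb in all 8 samples, at a ratio of 1.304 to 1.89 in females, 1.002 to 1.34 in the compared males and 1.66 in male replicate 1. The exact permutation p of the 5 members whose sexes overlapped was 0.83 for Lepr, 0.171 for Ghr, 0.114 for Prlr, 0.571 for Adipor2 and 0.0857 for Glp1r. The intervals of the adiponectin receptors still allow a log2 difference of 0.60 for Adipor1 and of -0.59 for Adipor2.

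The incretin receptors were low. Glp1r (chr17:30901817-30940791, plus strand) had 3.68, 3.39, 4.19 and 5.196 CPM in females and 5.003 CPM in male replicate 1. Male replicates 2, 3 and 4 had 0, 1.498 and 4.13 CPM, from 0, 40 and 90 counts. The sexes overlapped through male replicate 4, and the log2 fold change of -1.16 ± 1.09 (SE) had a 95% interval from -3.73 to 1.40 (edgeR adjusted p = 0.631). It was -2.47 without male replicate 4 and -0.57 without male replicate 2. Of 17694 genes with a mean of at least 20 counts, 4.67% had a 0 in some sample of the 7. Gipr (chr7:19156061-19166127, minus strand) was at 0 in 5 of 8 samples. It had 7 counts (0.344 CPM) in female replicate 2, 4 counts (0.155 CPM) in male replicate 2 and 22 counts (0.965 CPM) in male replicate 1, so only these 3 samples lay above the floor of 3 counts. Where both were counted, the ratio of Glp1r to Gipr per kb was 5.91 in female replicate 2 and 3.10 in male replicate 1.

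Gpr119 (chrX:48667979-48674478, minus strand) was listed at 0 counts in all 4 males. The females had 114, 80, 160 and 29 counts, or 4.88, 3.93, 4.90 and 1.26 CPM, with a mean of 3.74 ± 1.72 CPM (SD, n = 4). Against a floor of 3 counts over the 3 males of the comparison, or 0.0404 CPM, the female mean was at least 92.5-fold higher, and at least 121-fold higher when male replicate 1 was included. Female replicate 4 was the lowest of the females and still above the floor. Per kb, the female mean of 1.65 ± 0.757 was close to that of Ghr (1.59 ± 0.747). Prlr had a mean of 1.34 ± 1.44 in females, carried by 3.49 in replicate 1 against 0.592, 0.772 and 0.4996 in replicates 2, 3 and 4. The 3 genes with the pattern nearest to Gpr119 over the 8 samples were Gm8113, at a root mean square difference of 0.123 on the centred log2(CPM + 1) scale, Krt81 (0.309) and Krt86 (0.314). Gm8113 was also at 0 in all males and ranged from 1.34 to 4.84 CPM in females. Krt81, a hair keratin, ranged from 2.04 to 7.75 CPM in females and reached 0.367 CPM in males. Other receptors for lipids were not uniformly absent from males, since Ffar4, a receptor for long-chain fatty acids, ranged from 9.13 to 26.5 CPM in the compared males and from 5.995 to 10.7 CPM in females. Ffar1, Ffar3 and Gpr84, however, were at 0 in all males, and Gpr84 reached 1.41 CPM in females. Cnr2, Hcar1 and Gpr55 were counted in each compared male, at no more than 3.58 CPM.

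**Figure D3:**
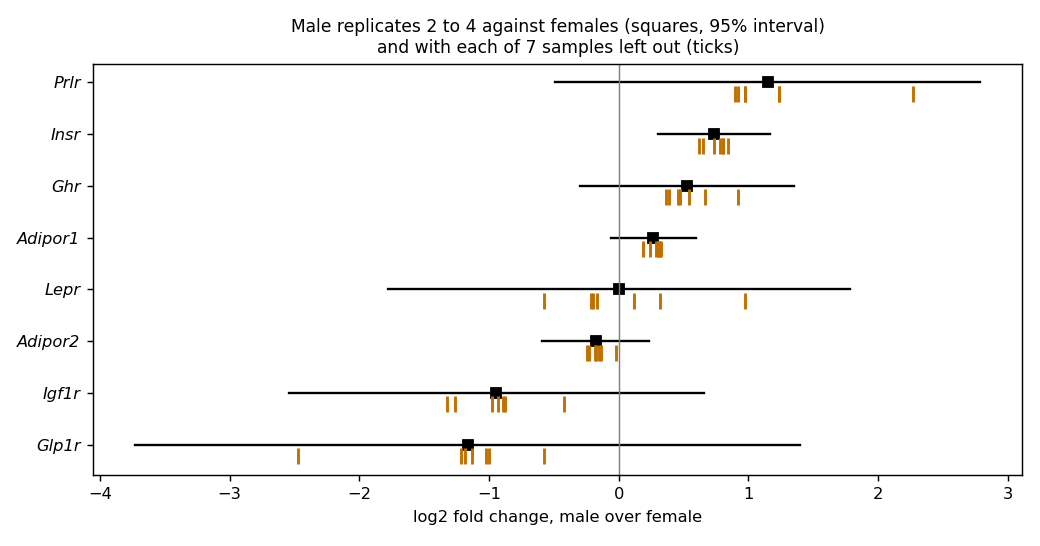
Log2 fold change of male replicates 2 to 4 over females for the 8 members with a test (squares, with 95% intervals from edgeR), and the value with each of the 7 samples left out in turn (ticks); the grey line marks no difference. Among these 8, only the interval of Insr leaves out 0, and a single left-out sample moves Prlr, Igf1r, Glp1r and Lepr most.

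The patterns nearest to those of the other members over the 8 samples were described in the same way. Cmtm6, Selenop and Bag5 were nearest to Insr, at 0.0815, 0.0834 and 0.110. Selenop, which encodes the plasma selenium carrier, ranged from 322 to 371 CPM in the compared males and from 179 to 240 CPM in females, and had 191 CPM in male replicate 1. Etv1, Hist1h4d and Hspa1a were nearest to Prlr, at 0.427, 0.451 and 0.475, and Pla2g7, 9430065F17Rik and Igfbp5 to Ghr, at 0.186, 0.197 and 0.200. For Adipor1 they were Asrgl1, Tpm3-rs7 and Nmnat1 (0.0706 to 0.0752), for Adipor2 Gm7332, Herpud2 and Txnrd1 (0.0689 to 0.0728), for Glp1r Col27a1, Adam11 and Ctcf (0.212 to 0.293) and for Lepr Gm7435, Cdnf and Zfyve27 (0.250 to 0.260). The nearness of a pattern is a description over 8 samples, with 17217 genes searched.

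Male replicate 1 fell outside the range of male replicates 2 to 4 for 4 of the 8 members with at least 1 CPM in their mean, against 71.6% of all such genes. Insr and Adipor1 were lower than in the other males, Igf1r and Glp1r were higher, and Lepr, Ghr, Prlr and Adipor2 lay inside the range. In this sample Malat1, a nuclear noncoding RNA, took 11.1% of the counts, against 1.27 to 1.59% in the females and 0.706 to 0.925% in the compared males. Nr5a1, the gene whose regulatory region drives EGFP, was 16.4 CPM in this sample, against 590 to 794 CPM in the compared males and 863 to 1263 CPM in females. The summed gonadotrope markers of this sample, at 28571 CPM, lay within the female range and below the 67400 to 76488 CPM of the other males. The part of these differences in the receptor levels was not tested.

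The signalling genes downstream of the receptors were read from lists of pathway genes, whose counts are set beside the 2.34% of all genes tested that passed. In the list of JAK-STAT signalling, 3 of 26 tested genes fell in males and none rose, with a median log2 fold change of -0.18. They were Stat5a and Stat5b, the transcription factors that GHR and PRLR activate, and Socs1, a feedback inhibitor of JAK kinases. Stat5a had 55.6, 81.7, 59.3 and 40.7 CPM in females and 20.1, 14.8 and 21.4 CPM in male replicates 2 to 4, with a log2 fold change of -1.68 ± 0.28 (SE) and an edgeR adjusted p of 0.0381. Its gene (chr11:100859351-100885169, plus strand) overlaps that of Stat3 (chr11:100885098-100939540, minus strand), so reads in the shared stretch may be uncertain. Stat5b had 114, 116, 114 and 105 CPM in females and 54.7, 67.0 and 62.8 CPM in the males (-0.89 ± 0.13, adjusted p = 0.0302), while male replicate 1, at 106 CPM, was level with the females. Socs1 was 9.89 ± 2.34 CPM in females (SD, n = 4) and 1.94 ± 0.342 CPM in males (SD, n = 3), a log2 fold change of -2.37 ± 0.27 (adjusted p = 0.0161), and 21.8 CPM in male replicate 1. For these 3 genes no male of the comparison reached the lowest female.

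Other abundant genes of that list did not pass the test. Socs3, induced by leptin and cytokines, was 232 ± 55.0 CPM in males and 354 ± 78.5 CPM in females, Jak1 was 298 ± 29.4 and 236 ± 22.3 CPM, and Ptpn11 and Leprotl1 had adjusted p-values of 0.766 and 0.194. Stat3, the main STAT of the leptin receptor and named here after its values were seen, ranged from 8.69 to 14.0 CPM in females and from 10.04 to 199 CPM in male replicates 2 to 4 (edgeR adjusted p = 0.0759).

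In the list of insulin and IGF signalling, 1 of 34 tested genes fell in males and none rose, a share close to the 2.34% of all genes, with a median of -0.24. Foxo1, the transcription factor that insulin signalling keeps out of the nucleus, had 160, 188, 160 and 178 CPM in females, 99.0, 90.6 and 111 CPM in the compared males and 98.7 CPM in male replicate 1 (-0.80 ± 0.14, edgeR adjusted p = 0.0417). The abundant members Gsk3b, Rheb, Pik3r1 and Irs2 did not pass, with adjusted p-values from 0.119 to 0.822. Among IGF ligands and binding proteins, 1 of 12 tested genes rose in males and none fell, with a median of 0.31. This was Stc1, which encodes a stanniocalcin, a family that blocks the protease PAPP-A, at 20.1 ± 6.02 CPM in males and 7.20 ± 1.07 CPM in females (1.46 ± 0.24, adjusted p = 0.0367). Igfbp5 was the most abundant of them, at 1788 ± 208 CPM in males and 1376 ± 407 CPM in females (adjusted p = 0.462). Igfbp3, at 244 ± 20.5 CPM in males and 169 ± 38.9 CPM in females, did not overlap between the sexes and did not pass (adjusted p = 0.235). Igf1, the ligand, was low and had its lowest value, 0.862 CPM from 23 counts, in male replicate 3, the sample in which Igf1r was low.

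In the list of the glucagon receptor family and its partners, 1 of 12 tested genes rose in males and none fell, with a median of 0.14. Ramp1, an accessory protein of the calcitonin-receptor-like receptor, had 18.0, 11.5, 12.8 and 8.53 CPM in females, 36.0, 38.8 and 50.1 CPM in the compared males and 27.9 CPM in male replicate 1 (1.69 ± 0.27, edgeR adjusted p = 0.0352). Calcrl, which encodes that receptor, was 38.9 ± 4.37 CPM in males and 30.3 ± 6.83 CPM in females (adjusted p = 0.438), and Adcyap1r1, the PACAP receptor, was 79.0 ± 28.4 and 80.5 ± 41.9 CPM. Ramp2 had 26, 2 and 22 counts in female replicates 1 and 4 and male replicate 4, and reached 3714 counts elsewhere. Ramp3 had 1 count in female replicate 3 and 1 in male replicate 1, and reached 986 counts elsewhere, and Ramp2 shares its locus in the table with Vps25. No gene passed among the 23 tested of adiponectin signalling and the PAQR family (median 0.04), where Appl1, the adaptor of the adiponectin receptors, was 125 ± 19.7 CPM in males and 79.8 ± 9.09 CPM in females (adjusted p = 0.0936). None passed among the 13 tested lipid-sensing receptors and lipid amide enzymes (median 0.01), where Naaa, which breaks down N-acylethanolamines, was 29.0 ± 2.83 CPM in males and 51.6 ± 10.8 CPM in females (adjusted p = 0.0794). At an unadjusted p under 0.05, edgeR gave 8 of 23 and 2 of 13 genes of these lists, against 19.9% of all genes tested, and DESeq2 called 5 and 1, against 9.71%.

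Among the other metabolic and cytokine receptors, 1 of 13 tested genes fell in males and none rose, with a median of -0.38. Il6st, the gp130 subunit shared by the receptors of the IL-6 family, had 680, 654, 743 and 426 CPM in females, 99.8, 80.3 and 146 CPM in the compared males and 116 CPM in male replicate 1, a log2 fold change of -2.55 ± 0.29 (SE, edgeR adjusted p = 0.0161). Every female lay above every male. Fgfr1, Lifr, Il6ra and Osmr, the next highest of the list by mean CPM, did not pass, and their edgeR adjusted p-values ranged from 0.511 to 0.932. Osmr had a mean of only 8.24 CPM over the 7 samples. The log2 fold changes of Fgfr1 and Lifr had SEs of 0.995 and 1.04.

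With each of the 7 samples left out in turn, Socs1 kept its call in 6 fits and lost it without male replicate 3 (adjusted p = 0.0622), and Il6st kept it in 6 and lost it without male replicate 2 (adjusted p = 0.0642). Stat5a kept its call only without female replicate 4 and Ramp1 only without female replicate 1, whereas Stat5b, Foxo1 and Stc1 lost theirs whichever sample was left out, with adjusted p-values up to 0.100, 0.146 and 0.105. The left-out log2 fold changes of these 3 genes stayed between -0.95 and -0.81, between -0.88 and -0.73 and between 1.19 and 1.61. The direction of all 7 genes held in each of these fits, and DESeq2 called all 7. With all 8 samples in the fit, only Il6st was called. The stem cell markers, whose sum was 246 to 383 CPM in females and 140 to 172 CPM in male replicates 2 to 4, the stromal markers, at 120 to 170 and 104 to 112 CPM, and the Malat1 share of the counts, at 1.27 to 1.59% and 0.706 to 0.925%, were higher in females, as were the values of Stat5a, Stat5b, Socs1, Foxo1 and Il6st. The summed gonadotrope markers, at 21516 to 34770 CPM in females and 67400 to 76488 CPM in male replicates 2 to 4, the somatotrope markers, at 12413 to 58215 and 64453 to 143754 CPM, and the thyrotrope markers, at 84.7 to 223 and 276 to 378 CPM, were higher in the compared males, as were the values of Insr, Stc1 and Ramp1. The gonadotrope sum was carried by Fshb (1398 to 5708 CPM in females and 17066 to 30664 CPM in the compared males) and Cga (13376 to 25023 and 24438 to 51224 CPM), while Nr5a1 was lower in the compared males without overlap and Cga, Gnrhr and Lhb overlapped between the sexes. The somatotrope sum was almost all Gh, since Ghrhr was at most 61.3 CPM and overlapped between the sexes. The thyrotrope sum was carried by Tshb (20.9 to 83.2 CPM in females and 234 to 335 CPM in the compared males), while Dio2 was lower in the compared males without overlap. Of the 6 stromal markers, Col1a1 and Col3a1 separated the sexes, while Col1a2, Dcn, Pdgfrb and Lum overlapped, with log2 fold changes of -0.05 for Dcn and 0.11 for Lum. Of the 3 stem cell markers, Sox2 and Sox9 separated the sexes and S100b overlapped. No marker of these lists was at 0 in all samples, and the part of cell composition and of Malat1 in these differences was not tested.

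**Figure D4:**
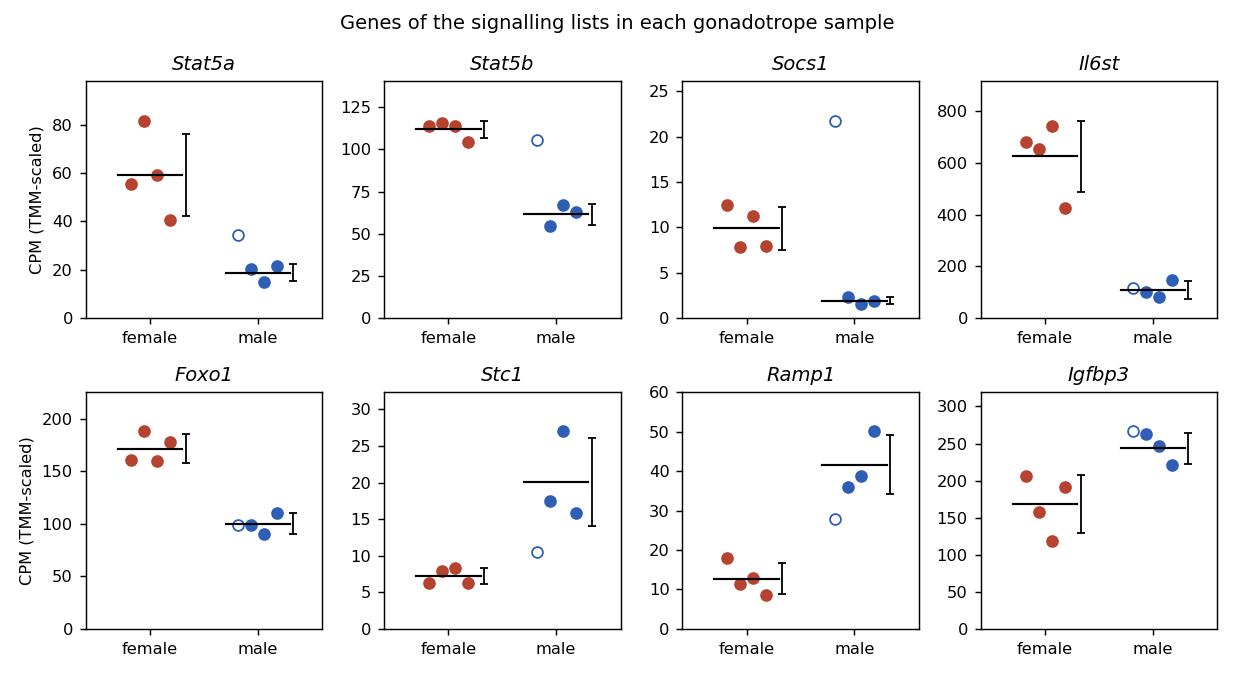
CPM of 8 genes of the signalling lists in each sample, with axes from 0, replicates 1 to 4 from left to right, means and SDs as lines and bars, and male replicate 1 as the open circle, outside the mean. Of these, 7 passed the adjusted threshold and Igfbp3 did not, and the open circle lies with the females for Stat5b and above them for Socs1.

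Of the list of 10 ligands, Gh, Prl and Igf1 were tested, and none passed in edgeR (0 at an unadjusted p under 0.05) or in DESeq2. Igf1 ranged from 7.16 to 19.4 CPM in females and from 0.862 to 12.9 CPM in the compared males. Igf2 reached 5.65 CPM in 1 female sample and at most 0.505 CPM in the compared males. Lep, Ins1, Ins2, Adipoq and Gcg were listed at 0 counts in all 8 samples, and Gip did not exceed 0.571 CPM.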

How the data were processed

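RNA from sorted EGFP-expressing gonadotropes was extracted with the RNeasy micro kit, and libraries were made with the NEBNext Single Cell/Low Input kit. The authors deposited raw counts of reads per gene for 8 samples in a single table, without normalization. The submitters' processing notes name cutadapt, STAR and featureCounts and the build mm10 (GRCm38). Counting used default parameters, under which featureCounts does not use strand. The annotation is not given in the sources used here. Many entries are named by MSTRG loci, a form that StringTie gives, so a gene's reads may be divided between entries of a locus. Totals ranged from 18774578 to 31302588 counts.

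CPM was computed with TMM factors over the 8 samples (edgeR 4.0.16, R 4.3.3), and no column was left unmatched. Male replicates 2 to 4 were compared with the 4 females by edgeR's quasi-likelihood test on the counts after filterByExpr, with Benjamini-Hochberg adjustment over all 20152 genes tested and a threshold of 0.05. Intervals of log2 fold changes are 95% intervals from the standard error. Exact two-sided permutation tests used log2(CPM + 1). The scripts were tested on simulated data. Alternatives were upper-quartile scaling, library size alone, DESeq2 1.42.0, other filters, all 8 samples, a replicate block, counts summed by locus and leaving out each sample. Tables and promoters were handled in Python 3.11.15 with pandas 2.3.3 and scipy 1.17.1.

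The members and the lists were chosen with earlier results of these data known. Named genes are the members, the list genes past the threshold with up to 4 others of highest mean CPM, the 3 genes nearest in pattern to each member with at least 1 CPM in 4 samples, and markers. Stat3, Leprot, Ffar4, Ffar1, Ffar3, Gpr84, Cnr2, Hcar1, Gpr55 and the hormone genes at or near 0 were named outside this rule, after their values were seen. The whole pituitary samples were not analysed here.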

Additional observations from a re-analysis of the deposited data

Results flagged for a closer look

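A sample stood apart from the others of its sex, by a gap that takes up most of the range of the group, in 6 of 41 groups of 4 samples. The number set for chance, 2.05, is no guide for groups near 0, such as those of Gipr, or for groups that share samples. No excess is therefore read from it. For Lepr this was female replicate 4, at 3.72 CPM beside 0.687 to 0.888 CPM in the rest. For Prlr it was female replicate 1, at 53.5 CPM beside 7.66 to 11.8 CPM. Gipr reached 0.965 CPM in male replicate 1, with 0 to 0.155 CPM in the remaining males, and 0.344 CPM in female replicate 2, the only female with a count. Prl, the lactotrope marker, reached 18234 CPM in female replicate 2, beside 4677 to 6918 CPM. The sum of the stromal markers reached 170 CPM in female replicate 1, beside 120 to 126 CPM, and this is the sample in which Prlr was high.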

How the results depend on the processing

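Between the sexes, 471 genes passed the threshold (198 with the males and 273 with the females higher), against 808 with library size alone (133 and 675), 2235 with DESeq2 (1027 and 1208), 177 with no filter beyond 1 count, 67 with all 8 samples, and 88 to 171 with each sample left out. With library size alone, the median change over all genes tested was -0.24 on the log2 scale. Under the replicate block, which leaves female replicate 1 without a partner, 0 genes, 0 members and 0 list genes passed. Same-numbered samples did not deviate together (correlations of -0.0192, -0.0082 and -0.0002). Such values cannot show whether the numbers pair the samples, and the labels do not say. Of the members, 0 passed, against 1 with DESeq2 (Insr; Prlr had no adjusted p) and 0 to 1 with each sample left out, the call being Prlr without female replicate 1. The log2 fold change of Lepr, 0.00, was -0.19 with library size alone, -0.0032 under the replicate block, and from -0.58 to 0.97 with each sample left out. The other 7 tested members kept their direction under all alternatives run. In the JAK-STAT list, 3 genes passed, against 5 with library size alone, 6 with DESeq2, 1 with no filter, 0 with all 8 samples and 1 to 2 with a sample left out. In the insulin and IGF list, 1 passed, against 5, 7, 0, 0 and 0 in the same order. Among IGF ligands and binding proteins, 1 passed, against 2, 3, 0, 0 and 0. In the adiponectin list, 0 passed, against 1 with library size alone and 5 with DESeq2. In the glucagon family, 1 passed, against 2 with library size alone, 4 with DESeq2, 2 with at least 10 counts in every sample, 0 with all 8 samples and 0 to 1 with a sample left out. Among lipid receptors, 0 passed, against 1 with library size alone and 1 with DESeq2. Among other receptors, 1 passed, against 4 with DESeq2, 2 with counts summed by locus and 0 to 2 with a sample left out. The causes of these changes were not tested. At these depths Gipr was at or near the floor of 3 counts in all samples but male replicate 1 and female replicate 2.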
